A study of Mus musculus with 8 samples.

Results

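The 10 genes described here encode proteins that the liver secretes into the blood to act on metabolism and growth, together with the binding proteins of insulin-like growth factors. They were chosen by name: Fgf21, Enho, Inhbe, Fst, Fetub, Ahsg, Lect2, Igf1, Igfbp1 and Igfbp2. All 10 were among the 13774 genes of the table for mice that overexpress Ube3a, and 9 were among the 11773 genes of the table for mice with a knockout allele of it; Fst was not listed in the latter. The study, whose title names the ubiquitin ligase UBE3A as an opponent of liver fat accumulation, sequenced RNA from the livers of C57BL/6 mice fed a diet with 42% fat for 8 weeks. Every group, WT included, received this diet. Libraries came in 4 groups of 2: the overexpressing mice, homozygous for the transgene (Ube3a TG homo, here TG), had a WT pair of their own, and the mice with 1 knockout and 1 WT allele (Ube3a het, here het) had another. The labels give neither the promoter that drives the transgene, nor the age or sex of the mice, nor whether paired libraries represent different animals. All p-values thus measure only the spread between these libraries, and that spread may be technical.

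Hormones secreted by hepatocytes are often called hepatokines. FGF21 is a fasting and stress hormone that signals through FGF receptors paired with beta-klotho, adropin (Enho) is a small peptide tied to glucose and lipid handling, and activin E (Inhbe) belongs to the TGF-beta family and restrains lipolysis in adipose tissue. Follistatin (Fst) binds and neutralises activins. In the growth hormone axis the liver is the main source of circulating IGF1, while IGFBP1 and IGFBP2 bind IGFs in the blood and the Igfbp1 gene is repressed by insulin.

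Libraries of the TG table held 44193275 to 47928229 reads and het table libraries 13171145 to 17748088, so that low genes rest on fewer reads in het. Values are normalised reads, that is reads divided by the authors' factor for the library. Ube3a stood at 1187 and 1359 in WT and at 5991 and 5938 in TG, and at 369 and 409 in WT and 301 and 280 in het. Both lay in the labelled direction, by 2.23 (limma adjusted p = 0.0586) and −0.42 (adjusted p = 0.129) on the log2 scale. All 10 hepatocyte markers were listed in both tables. Summed markers of sinusoidal endothelium were lower in TG (293 to 313 RPM, that is reads scaled to an equal library total, against 380 to 387) and higher in het (335 to 342 against 268 to 298). Kupffer cell and macrophage markers were lower in TG (416 to 547 against 670 to 702) and overlapped in het (553 to 777 against 487 to 668). Of 6 mesothelium markers 3 were listed in the het table, where they summed to 2.82 to 3.57 in het and 10.9 to 12.8 in WT. In the TG table all 6 were listed and their sums overlapped (9.31 to 15.7 in TG, 7.26 to 17.1 in WT). Hepatocyte marker sums overlapped in both tables (103000 to 113000 in TG against 92900 to 108000, 96500 to 109000 in het against 106000 to 121000). Stellate cell markers were lower in het (434 to 469 against 484 to 494) and overlapped in TG (447 to 606 against 469 to 528). Lymphocyte and neutrophil markers were low, and 8 of 10 were listed in the TG table. They summed to 3.28 to 7.41 in TG and 7.58 to 8.58 in WT, and overlapped in het. What part these shifts in other cells have in the results below was not tested, and in whole liver fewer cells of a type and less RNA per cell cannot be told apart.

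By limma on log2(value + 1), with p-values adjusted over the whole table by the Benjamini-Hochberg method, 0 of the 10 genes passed an adjusted p of 0.05 in TG, where 0% of all genes did. In het 0 of 9 passed, against 1.44% of all genes. At an unadjusted p under 0.05 limma had 4 of 10 in TG (9.12% of all genes) and 5 of 9 in het (14.7%). The quasi-likelihood test of edgeR, on the reads recovered from the values, called 0 of the 10 genes in TG (0% of all genes) and 0 of 9 in het (1.55%). DESeq2 on the recovered reads called 4 in TG (Enho, Inhbe, Fst and Igfbp2; 1.42% of all genes) and 3 in het (Fgf21, Enho and Inhbe; 2.45%). For the difference between the TG and het effects limma called 1 of 9, Enho (0.434% of all genes), with 6 at an unadjusted p under 0.05 (16.7%). There edgeR called Enho as well (0.374%), and DESeq2 called Enho, Inhbe, Ahsg and Igfbp2 (3.16%). An exact permutation test of 2 against 2 libraries cannot give a two-sided p below 0.333, so it was not used for single genes.

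**Figure D1:**
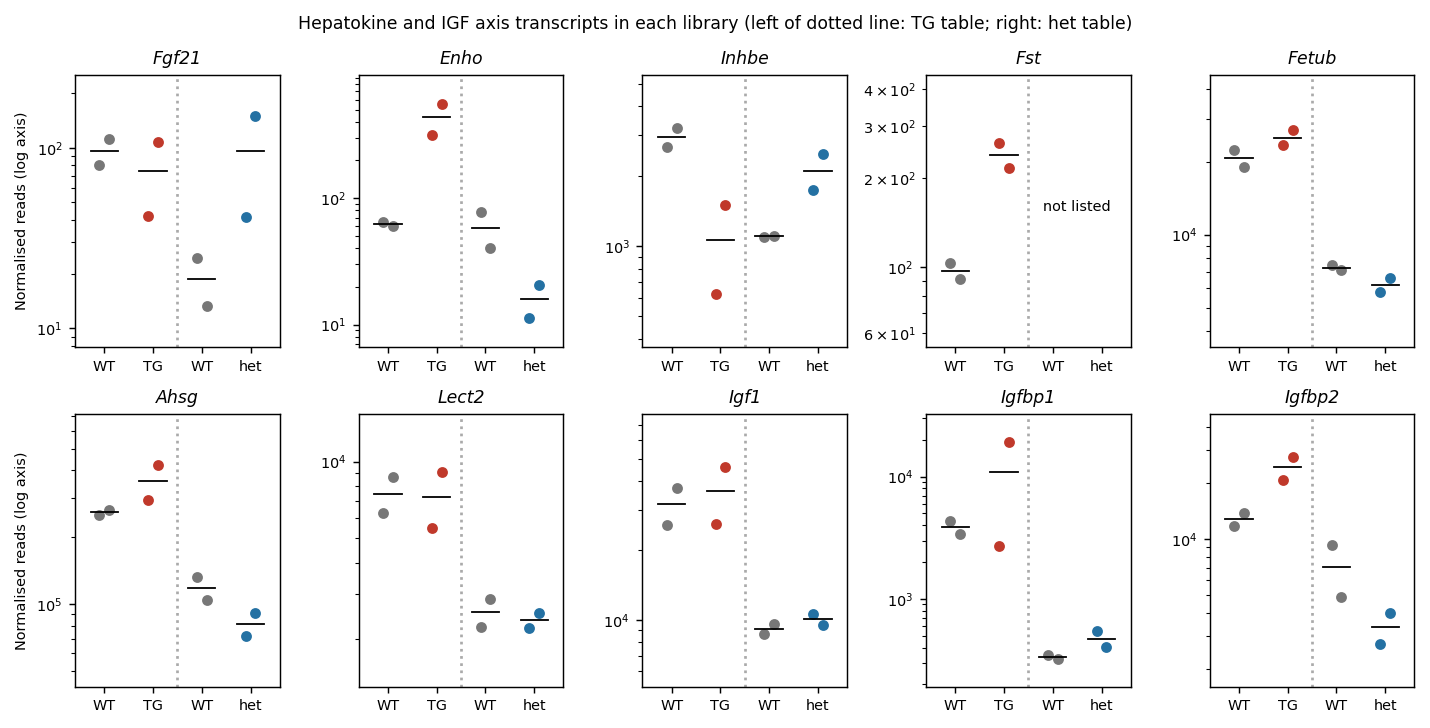
Normalised reads of each gene in each library on a log axis, with a point for each library and a bar at the mean of each pair; left of the dotted line is the TG table and right of it the het table, which were normalised separately and differ in depth. Enho had 314 and 559 in the TG libraries, with WT at 65.0 and 60.6, and 11.2 and 20.7 in the het libraries, with WT at 77.0 and 40.0, while Igfbp1 in TG was split between 2692 and 19169.

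Gene positions are those of GENCODE M21 on GRCm38. Of the hormones, Fgf21 (chromosome 7, 45613886 to 45615490, − strand) and Inhbe (chromosome 10, 127348857 to 127354411, − strand) were both above WT in het. The 250 bases before the start of each gene are shown because both hold the same 8-base word, TGATGCAA, which is a form of the C/EBP-ATF response element through which ATF4 acts. Both sequences are from RefSeq on GRCm38.p6, read 5′ to 3′ along the gene's own strand, and the capitals mark the word as its reverse complement, TTGCATCA. The RefSeq start of Inhbe lies inside the longer gene model whose coordinates are given above.
Fgf21, chr7:45615491-45615740, − strand: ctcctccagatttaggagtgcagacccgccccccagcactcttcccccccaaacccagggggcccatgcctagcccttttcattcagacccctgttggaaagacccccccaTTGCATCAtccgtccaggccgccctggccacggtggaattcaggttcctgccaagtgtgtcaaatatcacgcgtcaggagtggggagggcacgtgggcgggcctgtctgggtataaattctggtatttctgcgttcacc
Inhbe, chr10:127351849-127352098, − strand: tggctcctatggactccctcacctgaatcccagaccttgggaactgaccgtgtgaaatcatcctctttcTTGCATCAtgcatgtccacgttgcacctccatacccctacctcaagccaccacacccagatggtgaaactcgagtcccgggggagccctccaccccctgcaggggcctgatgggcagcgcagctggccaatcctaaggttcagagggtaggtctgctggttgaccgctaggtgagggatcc
The word lay 139 to 132 bases before the start of Fgf21 and 181 to 174 bases before that of Inhbe. Searched on both strands in the 250 bases before the start, it was in 260 of 32851 promoters, or 0.791%. Among the 8 of the 10 genes with an entry it was in these 2. The E-box CACGTG, the same on both strands, lay 50 to 45 bases before the start of Fgf21 and 142 to 137 before that of Igfbp2, and was in 6.02% of promoters. The PPAR response element, a repeat of AGGTCA with 1 base between, searched on both strands, was in none of the 8 and in 0.0335% of promoters. These matches describe letters and do not show that a factor bound.

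Fgf21 was at 24.4 and 13.3 normalised reads in WT and at 41.4 and 150 in het. Both het libraries lay above both WT libraries, with the larger part of the gap in het replicate 2. This was 4.19-fold, or 2.07 on the log2 scale (SE 0.72, 95% interval 0.09 to 4.04), with limma's adjusted p = 0.324 and that of DESeq2 0.00751. These values rest on 25 and 13 reads in WT and 48 and 130 in het. Without het replicate 1 the log2 fold change was 2.98, and without het replicate 2 it was 1.15. In the TG table Fgf21 was at 80.0 and 111 in WT and at 41.9 and 107 in TG. The groups overlapped there, with a log2 fold change of −0.48 (SE 0.50, adjusted p = 0.769) that was 0.18 without TG replicate 1. The effects in TG and het differed by −2.55 on the log2 scale (adjusted p = 0.272).

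Inhbe was at 1097 and 1113 in WT and at 1740 and 2491 in het. The WT libraries were nearly equal and both het libraries lay above them. Inhbe was thus 1.88-fold higher, 0.91 on the log2 scale (SE 0.17, 95% interval 0.50 to 1.32), with limma's unadjusted p = 0.00141 and adjusted p = 0.073, the smallest of the 9 genes in het. DESeq2 gave an adjusted p of 2e-04. The log2 fold change ran from 0.65 to 1.17 with each library left out in turn. In TG the direction was the other way: Inhbe was at 2676 and 3218 in WT and at 626 and 1510 in TG. Both TG libraries were below both WT libraries, and they differed 2.41-fold between themselves. In TG it was 3.02-fold lower, −1.59 on the log2 scale (SE 0.46, 95% interval −2.86 to −0.33), with limma's adjusted p = 0.526 and that of DESeq2 0.0254. It was −2.23 without TG replicate 2 and −0.96 without TG replicate 1. The effects differed by −2.51 (SE 0.58, limma adjusted p = 0.154; DESeq2 adjusted p = 5.67e-05). The difference was −1.87 without TG replicate 1 and −3.14 without TG replicate 2. An antisense gene, Gm47200, covers Inhbe along 5555 bases; it was not listed, and as the strand of counting is not given in the sources used here, its reads cannot be told apart from those of Inhbe.

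Over the 8 libraries, each gene taken as log2 values minus the mean of the WT pair of its table, the genes with names other than predicted models nearest to Inhbe were Tlr5, the receptor of bacterial flagellin, at a Euclidean distance of 0.644, Pex11a, a peroxisome protein and PPAR-alpha target in mouse, at 0.744, and Cd36, a fatty acid transporter, at 0.757. The median distance of all genes was 2.83. In TG the log2 fold changes were −1.43 for Tlr5, −1.17 for Pex11a and −1.76 for Cd36. In het they were 0.95, 1.06 and 0.99, and of these Pex11a rose by limma (adjusted p = 0.0371), from 846 and 655 in WT to 1400 and 1733 in het.

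Enho (chromosome 4, 41638144 to 41640324, − strand) had the largest fold change of the 10 genes in TG. It was at 65.0 and 60.6 in WT and at 314 and 559 in TG. Both TG libraries were several times above WT. The log2 fold change was 2.72 (SE 0.31, 95% interval 1.92 to 3.52), or 6.58-fold higher, and by unadjusted p (0.000265) Enho ranked 25 of 13774 genes. The adjusted p was 0.142 by limma and 3.01e-10 by DESeq2. With each library left out in turn the log2 fold change ran from 2.30 to 3.13. In het Enho was at 11.2 and 20.7, with WT at 77.0 and 40.0, on only 13 and 18 reads against 79 and 39. Both het libraries lay below both WT libraries. That is 3.47-fold lower, −1.80 on the log2 scale (SE 0.42, 95% interval −2.76 to −0.83), with an adjusted p of 0.0993 by limma and 0.0312 by DESeq2. It was −1.33 without WT replicate 1 and −2.26 without WT replicate 2. The effects in TG and het differed by 4.52 on the log2 scale (SE 0.60, 95% interval 3.11 to 5.92), with limma's adjusted p = 0.0338, the value by which Enho was called. Without the WT or het libraries, each left out in turn, the adjusted p was 0.0559 to 0.145 and the difference 4.05 to 4.98; without TG replicate 1 or 2 it stayed below 0.05, at 0.0136 and 0.0115. The antisense gene Gm12406 overlaps Enho along 947 bases and was not listed, and its reads cannot be told apart from those of Enho.

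**Figure D2:**
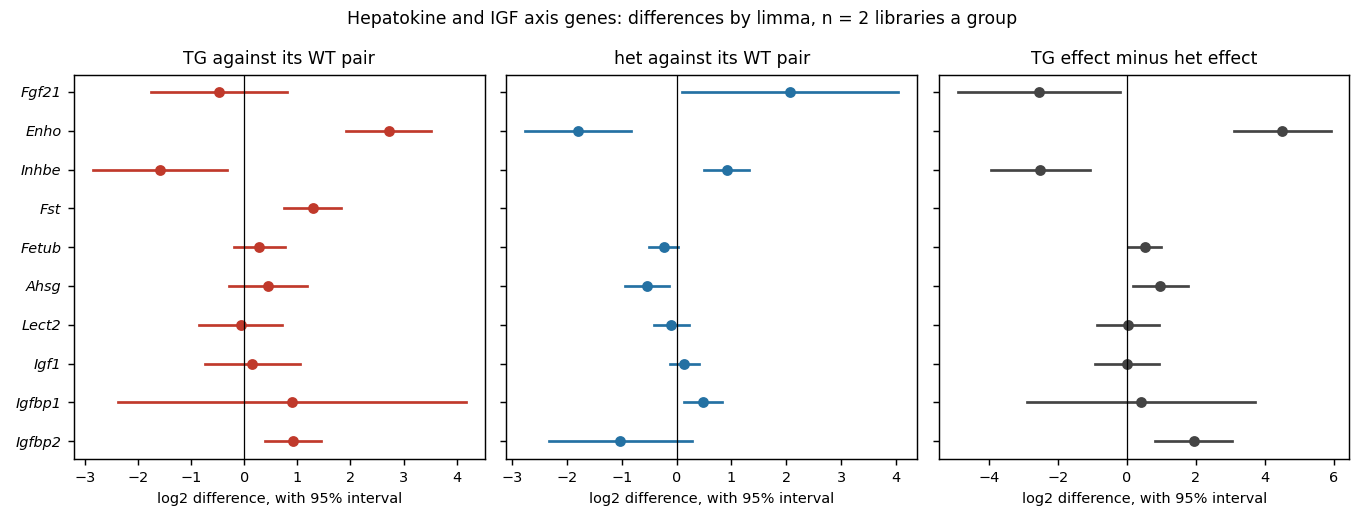
Log2 difference of each gene with its 95% interval by limma: TG against its WT pair, het against its WT pair, and the TG effect minus the het effect. The interval for Enho is above 0 in TG (1.92 to 3.52), below 0 in het (−2.76 to −0.83) and above 0 for the difference (3.11 to 5.92); Igfbp1 in TG spans −2.39 to 4.17, and Fst has a value in TG only.

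Fst (chromosome 13, 114452290 to 114458951, − strand), the activin antagonist, was at 103 and 90.9 in WT and at 263 and 215 in TG. Both TG libraries were above both WT libraries, and the spread within each pair was small beside the gap. Fst was 2.44-fold higher, 1.29 on the log2 scale (SE 0.21, 95% interval 0.75 to 1.83), with an adjusted p of 0.296 by limma and 0.00363 by DESeq2. It lay between 1.15 and 1.43 with each library left out in turn. Inhba, which encodes a subunit of the activins that follistatin binds most tightly, was at 58.0 and 38.4 in WT and 136 and 108 in TG, which is 1.35 on the log2 scale (adjusted p = 0.469). An antisense gene, Gm47040, overlaps Fst along 289 bases.

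The fetuins are abundant plasma proteins of the cystatin superfamily whose genes are neighbours: Ahsg (chromosome 16, 22891277 to 22899449, + strand) encodes fetuin-A, a carrier of mineral and an inhibitor of the insulin receptor, and Fetub (22918334 to 22939778, + strand) encodes the protease inhibitor fetuin-B. Ahsg was at 251920 and 265985 in WT and at 293682 and 421452 in TG. In het it was at 72210 and 90789, with WT at 132322 and 104169. Both TG libraries thus lay above their WT pair and both het libraries below theirs. The log2 fold changes were 0.44 in TG (SE 0.29, adjusted p = 0.655) and −0.54 in het (SE 0.18, adjusted p = 0.212), and the effects differed by 0.98 (limma adjusted p = 0.225; DESeq2 adjusted p = 0.0373). Fetub lay on the same sides with smaller gaps: the TG libraries had 23347 and 26958 with WT at 22379 and 18941, and the het libraries 5819 and 6601 with WT at 7466 and 7119. Its log2 fold changes were 0.29 (adjusted p = 0.656) and −0.23 (adjusted p = 0.388). Gm30505, an antisense gene that shares 3110 bases with Ahsg, was listed; its log2 fold change was 0.81 in TG and 0.34 in het.

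Lect2 (chromosome 13, 56542464 to 56548502, − strand), a chemotactic hepatokine, overlapped between the groups in both tables. It was at 6281 and 8673 in WT and 5454 and 9065 in TG, and at 2238 and 2867 in WT and 2207 and 2534 in het. The log2 fold changes were −0.07 (SE 0.30, adjusted p = 0.954) and −0.10 (adjusted p = 0.781), and both changed sign when a library was left out. In TG it ran from −0.44 to 0.30 over the left-out libraries.

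In the IGF axis, Igf1 (chromosome 10, 87858265 to 87937042, + strand) did not separate the groups. It was at 25882 and 37428 in WT and at 26049 and 45985 in TG, and at 8716 and 9552 in WT and 10627 and 9528 in het. A mutant library lay within the WT range in both tables. The log2 fold changes were 0.15 (SE 0.35, adjusted p = 0.90) and 0.14 (SE 0.12, adjusted p = 0.624), and the effects differed by 0.01 (adjusted p = 0.992). The antisense gene Igf1os overlaps Igf1 along 5117 bases and was not listed.

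Igfbp2 (chromosome 1, 72824503 to 72852474, + strand) was at 11719 and 13710 in WT and at 20725 and 27557 in TG. Both TG libraries were above both WT libraries, 1.89-fold higher by the fit, 0.91 on the log2 scale (SE 0.21, 95% interval 0.38 to 1.45), with an adjusted p of 0.466 by limma and 0.00426 by DESeq2. In het Igfbp2 was at 2733 and 3986, with WT at 9235 and 4886. Both het libraries were below, but the WT pair itself differed 1.89-fold. On the log2 scale the change was −1.03 (SE 0.43, 95% interval −2.33 to 0.28, adjusted p = 0.422), and it was −0.57 without WT replicate 1 and −1.48 without WT replicate 2. The effects differed by 1.94 (SE 0.47), with an adjusted p of 0.139 by limma and 0.000229 by DESeq2.

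Igfbp1 (chromosome 11, 7197782 to 7202546, + strand), the member of the axis that insulin represses, is shown with the 250 bases before its start because its TG libraries stood far apart, and FOXO1, the factor that insulin excludes from the nucleus, acts on this gene through an insulin response element. The sequence is from RefSeq on GRCm38.p6, read 5′ to 3′, and the capitals mark the core of that element, CAAAACA, 108 to 102 bases before the start.
Igfbp1, chr11:7197537-7197786, + strand: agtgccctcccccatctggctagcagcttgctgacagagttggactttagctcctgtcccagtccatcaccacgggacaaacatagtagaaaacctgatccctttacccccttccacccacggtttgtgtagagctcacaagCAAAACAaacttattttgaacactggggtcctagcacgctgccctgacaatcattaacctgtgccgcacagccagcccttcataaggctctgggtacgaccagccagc
Searched on both strands, this core was in 5.56% of all promoters. Igfbp1 was at 4373 and 3415 in WT and at 2692 and 19169 in TG. TG replicate 1 was below both WT libraries and TG replicate 2 above both, 7.12-fold apart. The log2 fold change of 0.89 (SE 1.10, 95% interval −2.39 to 4.17, adjusted p = 0.809) became −0.52 without TG replicate 2 and 2.31 without TG replicate 1. Of 18 listed targets of insulin and FOXO1, 6 differed over 2-fold between the TG libraries (7.65% of all genes) and 12 did not, and 3 did between the WT libraries (4.65%). Igfbp1 was among the 6. In TG replicate 1 and 2, in this order, Pck1 and G6pc, both of gluconeogenesis, were at 45345 and 229468 and at 6643 and 29120, while Fasn, the fatty acid synthase, was at 211676 and 27493. By contrast Ppargc1a was at 905 and 947 and Tat at 122193 and 121827. Pck1, G6pc and Fasn were chosen after their values were seen, as those furthest apart besides Igfbp1, and their part in the split of Igfbp1 was not tested. In het Igfbp1 was at 349 and 325 in WT and at 545 and 404 in het. Both het libraries were above, by 1.39-fold or 0.48 on the log2 scale (SE 0.15, 95% interval 0.13 to 0.82), with an adjusted p of 0.201.

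**Figure D3:**
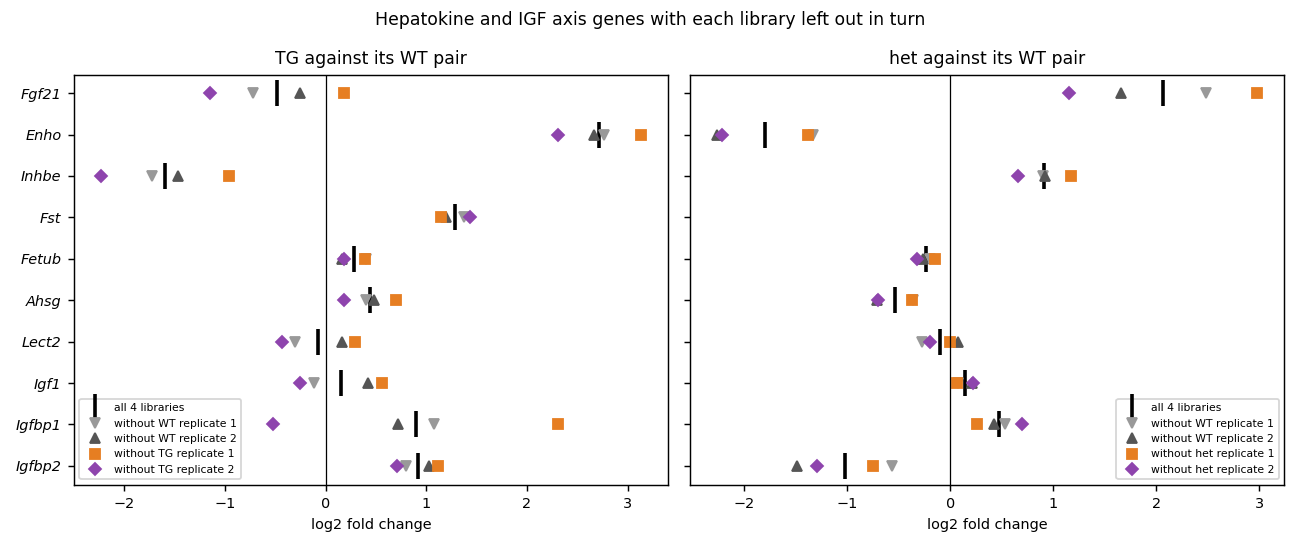
Log2 fold change of each gene against its WT pair with all 4 libraries (vertical bar) and with each library left out (symbols). Igfbp1 in TG ran from −0.52 to 2.31 and Fgf21 in het from 1.15 to 2.98, while Enho stayed above 2 in TG (2.30 to 3.13) and below −1 in het (−2.26 to −1.33).

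Across the 10 genes, 6 did not overlap between TG and WT, where 43.5% of all genes did not: 5 were higher (21.8% of all genes) and 1 lower (21.6%). In het 7 of 9 did not, against 48% of all genes: 3 were higher (24.3%) and 4 lower (23.7%). Enho, Igfbp2, Ahsg and Fetub were higher in TG and lower in het in every library (4 of 9, and 7.23% of all genes), and Inhbe lower in TG and higher in het (1 of 9, and 7.86%). In all, 5 of the 9 genes in both tables lay apart in opposite directions, where 15.1% of all genes did, and 0 lay apart in the same direction, where 7.22% did. The median size of the log2 fold change, without regard to sign, was 0.69 in TG and 0.54 in het, beside 0.195 and 0.153 over all genes. In every group the paired libraries also differed more between themselves in these genes than over all genes. The median gap in log2 units was 0.78 against 0.22 in TG and 0.25 against 0.18 in its WT pair. It was 0.43 against 0.14 in het and 0.35 against 0.15 in its WT pair. TG replicate 2 was above replicate 1 in 9 of 10 (51.5% of all genes).

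Scaled by exon length as well as by library total (RPKM, over the genes that both tables list), the levels in the WT pair of the TG table ran from Ahsg (2620 ± 141, SD, n = 2) through Fetub (234 ± 24.0), Lect2 (181 ± 43.8), Igfbp2 (153 ± 19.8), Igf1 (71.2 ± 19.4), Igfbp1 (56.6 ± 8.98), Inhbe (12.3 ± 1.77) and Fgf21 (2.24 ± 0.552) to Enho (1.10 ± 0.0424) and Fst (0.469 ± 0.0339). Igfbp2 lay within 1 SD of Lect2, and Igfbp1 within 1 SD of Igf1. Exon length here is the union of all annotated exons of a gene, not the length of the transcript expressed. It was 5319 bases for Inhbe and 9904 for Igf1, beside 919 for Lect2 and 1525 for Igfbp1. Levels of genes with long models may thus be understated, and the order depends on these lengths. The WT pairs were not alike in all genes: in RPM Igfbp1 was 3.85-fold higher in the WT pair of the TG table (86.4 against 22.5) and Enho 2.79-fold higher in that of the het table (3.89 against 1.40), while Inhbe (65.5 and 73.6), Igf1 (705 and 608), Fetub (458 and 486) and Lect2 (166 and 170) were within 1.16-fold. These differences between the pairs were not tested, and the pairs also differ in table and depth.

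Of all genes tested, 50.2% had a log2 fold change above 0 in TG and 49.9% in het; of the 10 genes described here, 7 of 10 and 4 of 9 did. Among other genes of these pathways, the list of IGF and growth hormone axis genes had 7 of 15 members above and 8 below WT in TG, with a median log2 fold change of −0.003 beside 0.0014 over all genes, and 7 above and 7 below in het (median −0.02); 0 passed in either table. In TG Igfbp3, the main carrier of circulating IGF1, had −0.72 (adjusted p = 0.518), and in het the carrier subunit Igfals had −0.36 (adjusted p = 0.182) and Igfbp6 −2.09 (adjusted p = 0.0925, 41.0 and 27.7 in WT, 4.31 and 11.5 in het). The list named growth hormone targets also holds the receptor Ghr and the signalling genes Jak2, Stat5a and Stat5b. It is not split by the direction in which the hormone moves a gene. Its shares and medians thus give no direction of hormone response. Below WT lay 21 of 26 in het (median −0.33 beside −7e-04 over all genes), and 20 of 27 lay above in TG (median 0.17). Of the list 3 fell in het by limma, among them the urinary proteins Mup3 (−0.93, adjusted p = 0.0138) and Mup21 (−0.77, adjusted p = 0.0403). Both belong to a gene family in which some copies are near-identical and can share reads. In TG the smallest p of the list were those of the steroid enzyme Hsd3b5 (1.95, adjusted p = 0.234) and the transcription factor Onecut1 (0.76, adjusted p = 0.348). Hsd3b5 was low, at 25 and 23.2 in WT and 92.6 and 99.2 in TG. Xist was abundant in all 8 libraries.

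The list of PPAR-alpha targets, a factor that drives Fgf21 in fasting, lay apart in opposite directions: 22 of 22 below WT in TG with a median of −0.72, and 22 of 22 above in het with a median of 0.47. In het 2 rose, the lipid droplet protein Plin2 (16860 and 19271 against 10039 and 8837; 0.94, adjusted p = 0.016) and the pantetheinase Vnn1 (0.78, adjusted p = 0.0382), and in TG 0 passed, with Cd36 (−1.76, adjusted p = 0.518) and Plin2 (−0.79, adjusted p = 0.534) at the smallest p. The TG median was −0.05 without TG replicate 1 and −1.13 without TG replicate 2. Of the targets of the integrated stress response, which ATF4 drives, 12 of 18 lay above WT in TG (median 0.27, −0.05 without TG replicate 2) and 7 of 15 in het (median −0.03), with 0 called. Atf4 itself had 2999 and 3030 in WT, 5867 and 4124 in TG (0.71, adjusted p = 0.518), and 1290 and 1108 in WT, 1034 and 998 in het (−0.23, adjusted p = 0.344); Eif4ebp1, a translation inhibitor, had 0.23 (adjusted p = 0.594) and −0.26 (adjusted p = 0.271), and Atf5 had 0.46 in het (adjusted p = 0.124).

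**Figure D4:**
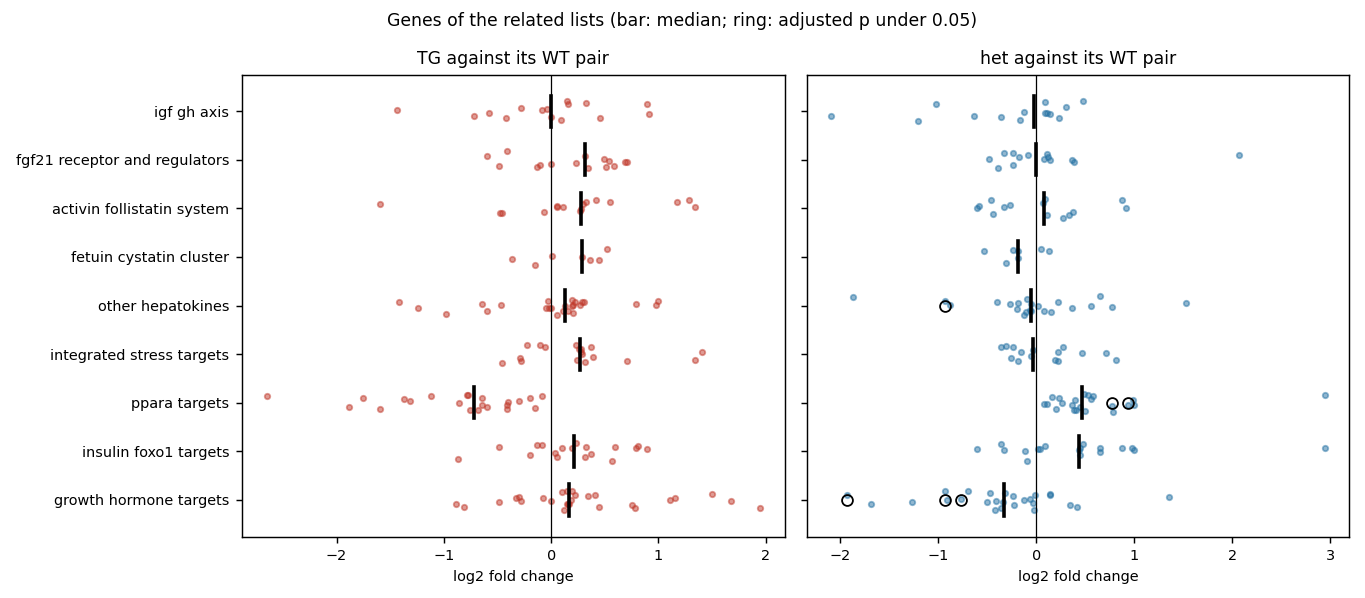
Log2 fold change of each gene of the related lists in TG (left) and het (right), with a point for each gene, a bar at the list's median and a ring around genes with an adjusted p under 0.05 by limma. PPAR-alpha targets have medians of −0.72 in TG and 0.47 in het. The growth hormone list, not split by the direction of the hormone's effect, has 0.17 and −0.33.

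Receptors and regulators of Fgf21 had 10 of 15 members above WT in TG (median 0.32) and 7 of 14 in het (median −0.002), with 0 called. In TG the smallest p were those of Rora, a nuclear receptor (0.51, adjusted p = 0.454), and Fgfr2 (0.54, adjusted p = 0.496), and in het those of Fgfr3 (−0.49, adjusted p = 0.107) and Ppara (0.39, adjusted p = 0.148). The activin and follistatin system, which holds Fst and Inhbe, had 12 of 16 above in TG (median 0.28) and 8 of 14 in het (median 0.08), with 0 called; Bambi, a decoy receptor, had −0.58 in het (adjusted p = 0.233). Neighbours and relatives of the fetuins had 5 of 7 above in TG (median 0.29) and 2 of 7 in het (median −0.19), with 0 called; Kng2, a kininogen, had 0.52 in TG (adjusted p = 0.557), Cst3, or cystatin C, −0.36 in TG (adjusted p = 0.559), and Hrg, the histidine-rich glycoprotein, −0.31 in het (adjusted p = 0.303). Targets of insulin and FOXO1 had 13 of 18 above WT in both tables (medians 0.21 and 0.44), with 0 called: the coactivator Ppargc1a had 0.81 in TG (905 and 947 against 525 and 529; adjusted p = 0.267) and Tat, which degrades tyrosine, 0.56 (adjusted p = 0.541), while in het Pck1 had 0.98 (adjusted p = 0.106) and Foxo1 0.44 (adjusted p = 0.114). Of other hepatokines 16 of 25 lay above in TG (median 0.13) and 9 of 22 in het (median −0.06). Serpinb1a, a protease inhibitor known as a hepatokine that acts on beta cells in mouse, fell in het (327 and 404 against 717 and 669; −0.93, adjusted p = 0.0136), and had −0.98 in TG (adjusted p = 0.626). In TG 0 of them passed, and the smallest p were those of Itih3, which binds hyaluronan (1.00, adjusted p = 0.445), and Orm2, an acute phase protein (−0.60, adjusted p = 0.555).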

How the data were processed

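Per the labels' protocols, RNA was taken up in TRIzol and made into TruSeq libraries. Subread 1.5.2, featureCounts, DESeq2 and mm10/GRCm38 appear, without roles, in the submitters' processing notes; neither annotation nor strand is given in the sources used here. As signal, the authors deposited reads per gene after division by 1 factor per library: from the values, 100% were whole reads within 0.001. The tables list genes with means of at least 11.2 (TG) and 17.8 (het), which leaves lower genes out, and hold 20 and 18 names turned into dates. Depth is given in the report; depth limits low genes most.

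Each mutant pair was compared with its own WT pair by limma 3.58.1 (trend, robust) in R 4.3.3 on log2(value + 1), which understates low genes, with Benjamini-Hochberg adjustment over all genes and a threshold of 0.05. The difference of effects was fitted jointly on the 11754 genes in both tables. Alternatives were edgeR 4.0.16 and DESeq2 1.42.0 on recovered reads, TMM scaling, pseudocounts of 0.5 and 5, mean CPM of at least 1, no robust estimates, a replicate block and each library left out; all 8 libraries in a single fit was added after seeing the data. Replicates differed beyond counting noise in every group (18.9 to 383 in chi-square per degree of freedom). The pipeline was tested on simulated data. Gene positions came from GENCODE M21.

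The genes and lists were chosen with earlier results of these data known. Named are the 10 genes, Ube3a, from each list the genes called in a table or in the difference (with none called in a table, those of smallest p, up to 2), and the 3 genes nearest to the one of the 10 with the smallest het p; predicted gene models were left out there. Other genes named were chosen after their values were seen. A few genes the rule picks are not reported here.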

Additional observations from a re-analysis of the deposited data

Results flagged for a closer look

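Enho differed between the genotypes in its response: the log2 effect in TG minus that in het was 4.52 (SE 0.60, n = 2 libraries a group), with limma's adjusted p = 0.0338; edgeR called it as well, and DESeq2 gave an adjusted p of 1.16e-10. The TG libraries were above WT in 2 of 2 and the het libraries below WT in 2 of 2, on 13 and 18 reads in het. Over the alternatives the adjusted p ran from 1.16e-10 to 0.145, and 9 of 16 kept the call. The WT pairs themselves differed 2.79-fold in Enho, at 1.40 RPM in the TG table and 3.89 in the het table, beside a 3.47-fold gap between het and its WT pair; its part in the difference was not tested.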

How the results depend on the processing

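Counts of called genes moved with the tool and with single libraries; the cause was not tested. DESeq2 called 188 genes in TG, 289 in het and 371 for the difference, and of the 10 genes 4, 3 and 4. All 8 libraries in a single fit gave 25 in TG and 0 in het, and no robust estimates 93 in het. With each library left out the calls were 0 to 146 in TG (6 without TG replicate 1, 146 without TG replicate 2), 61 to 173 in het and 5 to 643 for the difference; of the 10 genes 0 to 2, 0 to 2 and 0 to 3 were called. An arm left with a lone library borrows the spread of the other groups. The replicate numbers were not taken as pairs: the deviations of same-numbered libraries correlated at 0.107 in TG and −0.043 in het over only 2 pairs. With the replicate block 1 of the 9 genes was called in het, Inhbe (adjusted p = 0.028), and 0 for the difference (Enho adjusted p = 0.0843), and all genes called were 0, 138 and 46. Directions turned only when a library was left out: in TG for Igf1 (−0.26 to 0.56), Lect2 (−0.44 to 0.30), Fgf21 (−1.15 to 0.18) and Igfbp1 (−0.52 to 2.31), in het for Lect2 (−0.28 to 0.0796), and for the difference for Lect2 (−0.34 to 0.40), Igf1 (−0.40 to 0.42) and Igfbp1 (−0.998 to 1.83, called without TG replicate 1 at an adjusted p of 0.0293). TMM scaling, both pseudocounts and the CPM filter kept every count within 1.5 times. With 2 libraries a group and few reads for Enho and Fgf21 in het, intervals are wide.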
